A study of Homo sapiens with 8 samples.

Results

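The glucocorticoid receptor gene NR3C1 and 9 genes that glucocorticoids are known to induce, SGK1, TSC22D3, KLF9, ZBTB16, DUSP1, CEBPD, ERRFI1, NFKBIA and GLUL, were followed through 8 arrays of U373 cells, an established human astrocytoma line. The 10 genes were taken by name, with earlier results of these data known. All 10 were measured, among 18417 genes that had a probe set with 1 gene symbol, and the probe set with the highest mean stood for each gene. Cells were kept in medium with hormone-free serum and then given 10 nM progesterone together with 1 µM RU-486 (called the combination here), RU-486 alone, progesterone alone or vehicle for 12 h. Each of the 4 groups had 2 arrays, so 4 arrays had RU-486 and 4 did not. The labels call the replicates biological without saying whether cultures were separate, so a p-value here tells of the spread between these arrays, which may be technical. No group is labelled as treated with a glucocorticoid, so the block of a glucocorticoid by RU-486 was not measured.

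The glucocorticoid receptor waits in the cytoplasm in a complex with heat shock proteins and their co-chaperones. On binding a steroid it moves to the nucleus, where it binds DNA elements near its targets and raises their transcription, or tethers to NF-kappaB and AP-1 and lowers that of inflammatory genes. In astrocytes it is known for inducing glutamine synthetase, which turns glutamate taken up from synapses into glutamine. RU-486, or mifepristone, was developed as an antagonist of the progesterone and glucocorticoid receptors. It binds the glucocorticoid receptor tightly and, depending on the cell, can act on its targets as a weak agonist. The question is on which side the targets lay here, with RU-486 alone and on top of progesterone, which itself binds this receptor weakly.

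The receptor gene was measured well above the array's background. As a floor, 341 olfactory receptor genes, which an astrocytoma line has no known use for, had a median log2 level of 4.64, a 95th percentile of 6.22 and a maximum of 7.0. NR3C1 and 8 of the 9 targets averaged above that maximum, and ZBTB16, at 6.58 ± 0.16 (SD, n = 8), lay above 97.4% of those genes. Other steroid receptors lay near the floor, and membrane progesterone-binding proteins above it. PGR, the nuclear progesterone receptor and the other main target of RU-486, averaged 4.60 ± 0.16, and NR3C2, the mineralocorticoid receptor, 5.66 ± 0.08 (SD, n = 8 each). ESR1 and ESR2, the oestrogen receptors, averaged 5.95 and 5.56, whereas PGRMC2 and PAQR8, membrane-associated progesterone-binding proteins, averaged 9.65 and 9.25. A level near the floor does not show that a receptor was absent, and through which receptor any target differed was not tested.

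The cells carried the label's markers in part. VIM, CD44, S100B, NES and GFAP, known in astrocytes and astrocytoma, averaged 13.37, 13.05, 9.59, 8.65 and 7.54, while the mature astrocyte markers AQP4 and ALDH1L1 averaged 4.19 and 6.19, below the olfactory 95th percentile. Of 4 leukocyte and microglia markers 0 passed that percentile, and PTPRC averaged 3.44. The endothelial gene CDH5 (8.57) and the epithelial gene KRT18 (9.62) passed it, but PECAM1 (4.96), EPCAM (4.74) and CDH1 (5.20) did not. KRT18 had 9.87 and 9.78 with the combination, 9.60 and 9.64 with RU-486, 9.73 and 9.19 with progesterone, and 9.67 and 9.47 with vehicle. The part of KRT18 in the results was not tested. The mean of the endothelial pair ran from 6.81 to 6.85 over the combination arrays, 6.73 to 6.82 over RU-486, 6.74 on both of progesterone and 6.71 to 6.72 over vehicle, and its part in the results was not tested. Of the 3 neuron markers, RBFOX3 (6.73) and SNAP25 (6.59) passed the percentile and SYT1 (5.09) did not. The mean of these 3 ran from 6.12 to 6.28 over the combination arrays, 6.15 to 6.17 over RU-486, 6.12 to 6.22 over progesterone and 5.99 to 6.06 over vehicle, and its part was not tested either. Replicates differed most after progesterone, where the SD over genes of the difference between arrays was 0.35 log2 units, compared with 0.17 for the combination, 0.16 for RU-486 and 0.18 for vehicle. A single direction held 66.4% of the variance within groups, and the scores of the arrays on it were 16.7 and 8.11 for the combination, 4.23 and -3.84 for RU-486, 21.8 and -24.7 for progesterone and -3.71 and -18.7 for vehicle.

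Promoter windows of 250 bases before a RefSeq start were on hand for 8 of the 10 genes, 20 windows in all (GRCh38.p14). A window is printed for 3 targets that were higher on every array with RU-486, SGK1, TSC22D3 and NFKBIA, and for DUSP1, whose arrays overlapped. They lie at chr6:134174867-134175116 (the most downstream of 3 SGK1 starts), chrX:107717063-107717312 (the TSC22D3 start, of 4, with the most matches), chr14:35404750-35404999 and chr5:172771196-172771445, each on the minus strand and written 5′ to 3′. Capitals mark matches on either strand to a TATA box (TATAAA), a cAMP response element in full or short form (TGACGTCA, TGACG) and an NF-kappaB site (GGGANTTTCC).
SGK1: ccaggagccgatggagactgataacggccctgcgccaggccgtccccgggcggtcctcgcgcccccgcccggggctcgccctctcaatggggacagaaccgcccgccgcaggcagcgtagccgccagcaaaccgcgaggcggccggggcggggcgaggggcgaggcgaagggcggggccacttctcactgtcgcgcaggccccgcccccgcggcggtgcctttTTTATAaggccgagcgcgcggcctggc
TSC22D3: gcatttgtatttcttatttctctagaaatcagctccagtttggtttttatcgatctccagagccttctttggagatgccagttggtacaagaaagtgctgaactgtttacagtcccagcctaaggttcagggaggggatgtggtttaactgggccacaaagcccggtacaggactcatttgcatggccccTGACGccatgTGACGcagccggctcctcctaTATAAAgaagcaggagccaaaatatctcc
NFKBIA: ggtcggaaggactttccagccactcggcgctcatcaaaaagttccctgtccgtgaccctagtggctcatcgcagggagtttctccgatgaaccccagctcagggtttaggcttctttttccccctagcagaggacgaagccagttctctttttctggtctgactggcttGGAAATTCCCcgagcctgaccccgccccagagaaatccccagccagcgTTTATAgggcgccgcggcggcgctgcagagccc
DUSP1: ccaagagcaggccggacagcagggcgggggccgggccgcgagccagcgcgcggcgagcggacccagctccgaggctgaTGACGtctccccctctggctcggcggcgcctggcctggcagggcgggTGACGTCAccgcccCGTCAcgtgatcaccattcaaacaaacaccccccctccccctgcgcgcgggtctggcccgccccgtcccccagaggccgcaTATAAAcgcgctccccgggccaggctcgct

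All 4 windows printed hold a TATA box match about where one is usually found. In TSC22D3 and DUSP1 it is on the printed strand, in SGK1 and NFKBIA on the opposite strand (TTTATA as printed). The first printed base of the match lies at -27 in SGK1, -29 in TSC22D3, -33 in NFKBIA and -30 in DUSP1, counted back from the start. The TSC22D3 window was picked for its matches, and TATA box matches also played a part in choosing that of SGK1. Their presence in these windows is a description only. The other SGK1 windows have a TATA box match with its first base at -15 and, on the opposite strand, -96. That motif occurred in 10.7% of 35116 windows of this length and in 7 of the 20. The 1 window of ERRFI1, also higher on every array with RU-486, held 0 matches. The NFKBIA window has an NF-kappaB site from -81 to -72 (0.527% of windows), a factor that is known to induce NFKBIA. DUSP1 has a full cAMP response element from -125 to -118 (1.65% of windows), and the short form TGACG, which the full element contains, was found in 21.2% of windows and 5 of the 20. Neither the full glucocorticoid response element (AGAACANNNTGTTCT, in 0.00285% of windows), a relaxed form (GNACANNNTGTNC, 0.327%) nor the single arm AGAACA (12.4%) was in any of the 20. These letters are absent from these windows only. Glucocorticoid receptor binding sites are known to lie mostly at a distance from the start, and no binding was measured.

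Of the 9 targets, 5 were higher on every array with RU-486 than on every array without it: SGK1, TSC22D3, CEBPD, NFKBIA and ERRFI1. Over all genes 4.51% were ordered this way, and 1.09%, with 0 of the 10 among them, the opposite way. As the 10 were chosen with earlier results of these data known, the count beside that share is a description only. The mean differences were small, from 0.15 to 0.37 log2 units, and 0 of the 10 genes passed limma's test at an adjusted p of 0.05, at which 0.0326% of all genes (6 genes) were called for the average effect of RU-486. At an unadjusted p under 0.05, 5 targets were higher (6.53% of all genes) and NR3C1 was lower (4.49%). Fewer of the 10 had such a p when any 1 array other than progesterone replicate 1 was left out. Fewer of all genes did too in those settings, except without progesterone replicate 2, where more did. The drop was largest without vehicle replicate 2, RU-486 replicate 1 or combination replicate 1. With 1 array left out, the average effect ran from 0.33 to 0.41 for SGK1 and 0.25 to 0.39 for TSC22D3. For NR3C1 it ran from -0.32 to -0.16. KLF9, ZBTB16, DUSP1 and GLUL overlapped between the arrays with and without RU-486. After a further quantile normalization of the arrays, SGK1, TSC22D3 and CEBPD kept their separation and ERRFI1 and NFKBIA overlapped.

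**Figure D1:**
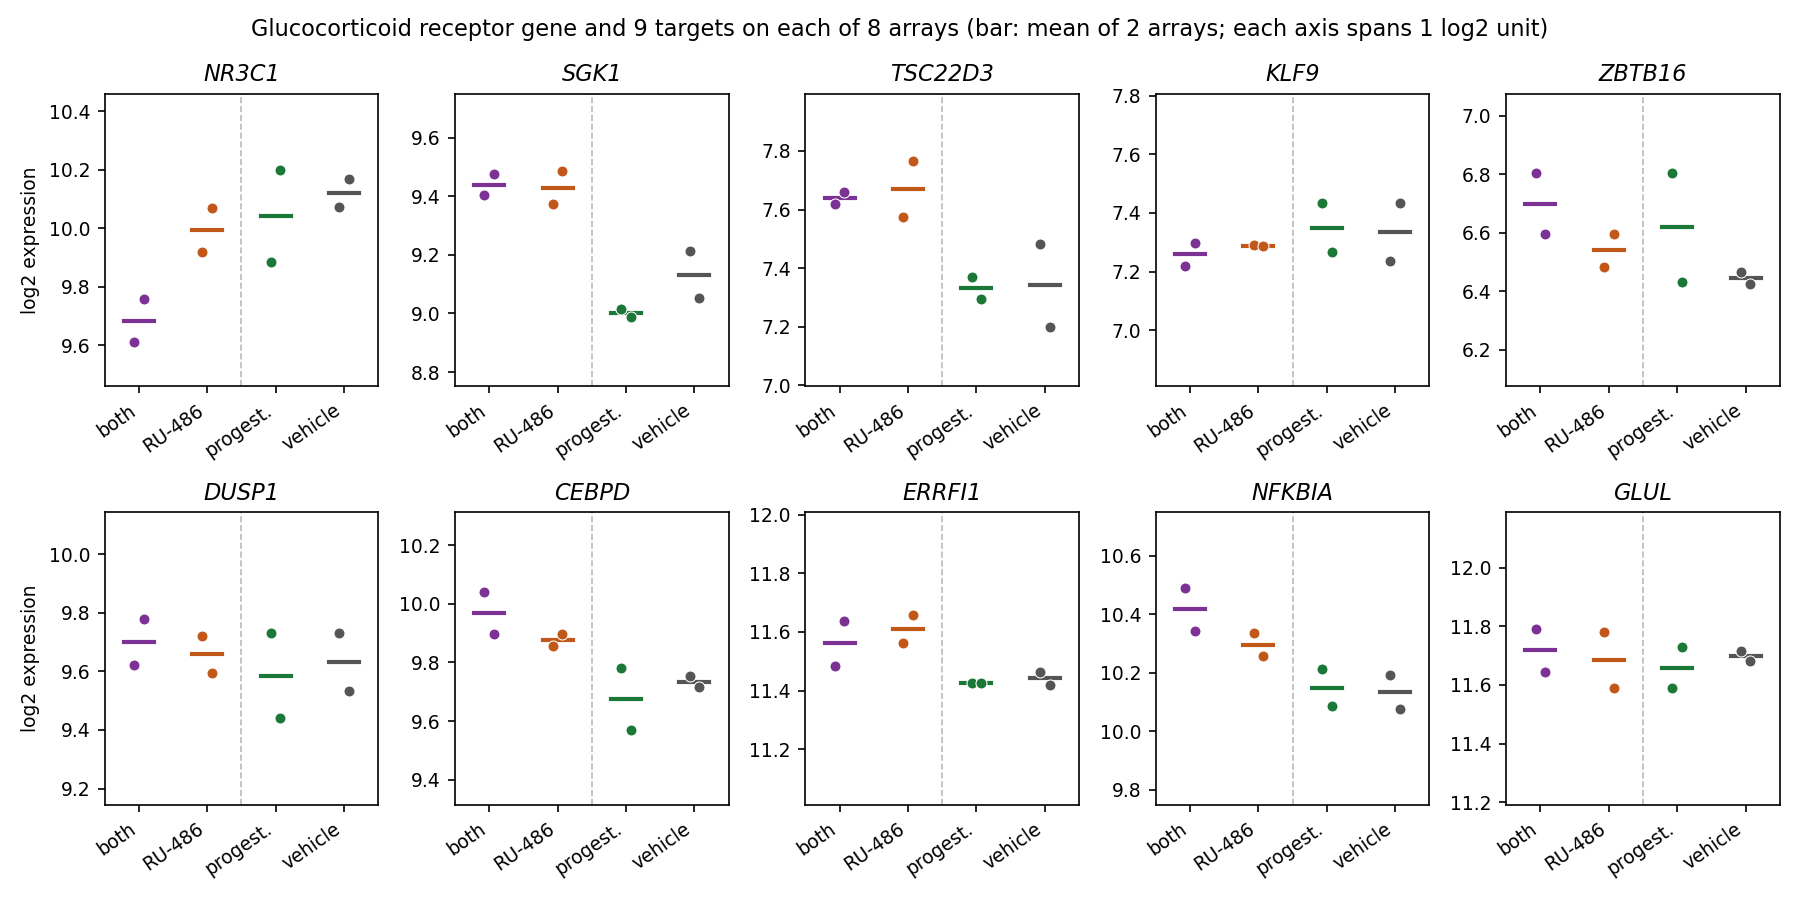
Log2 expression of NR3C1 and 9 targets on each of the 8 arrays; every panel spans 1 log2 unit, each point is an array, each bar the mean of 2 arrays, and the dashed line parts the arrays with RU-486 (left) from those without. SGK1, TSC22D3, CEBPD, NFKBIA and ERRFI1 lie higher on all 4 arrays left of the line than on the 4 right of it, and both combination arrays of NR3C1 lie below its other 6.

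NR3C1, which encodes the receptor itself (probe set 8114814), was lowest when both steroids were given. Its log2 levels were 9.61 and 9.76 with the combination, 9.92 and 10.07 with RU-486, 9.88 and 10.20 with progesterone, and 10.07 and 10.17 with vehicle. Both combination arrays lay below the other 6, as they did for 6.48% of all genes, while the RU-486 arrays lay just below the vehicle arrays and the progesterone arrays overlapped both. The mean was 9.68 ± 0.10 with the combination and 10.12 ± 0.07 with vehicle (SD, n = 2 each), a difference of -0.44 ± 0.12 (SE, limma adjusted p = 0.374). Against progesterone the combination differed by -0.36 ± 0.12 (limma adjusted p = 0.297) and against RU-486 by -0.31 ± 0.12 (limma adjusted p = 0.769). RU-486 alone differed from vehicle by -0.13 ± 0.12, and progesterone alone by -0.08 ± 0.12. None of these passed the test.

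The NR3C1 level moved with the direction in which replicates differed: in each of the 4 groups the replicate with the higher score on it, which was replicate 1 throughout, had the lower NR3C1 level. With the replicate number as a block, the combination against vehicle stayed at -0.44 (limma adjusted p = 0.0781). With that score as a covariate, an alternative chosen after seeing the data, NR3C1 differed by -0.27 between combination and vehicle and by -0.26 between combination and progesterone. Leaving out progesterone replicate 1, the array with the highest score, gave -0.51 for the combination against progesterone (limma adjusted p = 0.0477), 1 of 2 values among all alternatives in which a gene of the 10 passed. In that setting 1090 of all genes were called, and without progesterone replicate 2 the NR3C1 difference was -0.20 (limma adjusted p = 0.342). In bulk RNA, fewer cells with a transcript and less of it per cell cannot be told apart, here or for any gene below.

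SGK1, a kinase known to be induced by glucocorticoids, mineralocorticoids and progestins, had the largest difference of the 10 for the average effect of RU-486 (probe set 8129677). Its levels were 9.40 and 9.48 with the combination, 9.37 and 9.48 with RU-486, 9.02 and 8.99 with progesterone, and 9.21 and 9.05 with vehicle. The 4 arrays with RU-486 spanned 0.11 and lay above every array without it, and the 2 progesterone arrays were the lowest of all. With RU-486 the mean was 9.43 ± 0.05, against 9.07 ± 0.10 without (SD, n = 4 each), a difference of 0.37 ± 0.06 or 1.29-fold (limma adjusted p = 0.235), larger than the spread in either set of arrays. It was 89th from the top of 18417 genes by size. SGK1 passed in 1 of 17 alternatives, without progesterone replicate 1 (difference 0.37, limma adjusted p = 0.0408), and ranged from 0.33 to 0.41 over all 17.

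Given alone, RU-486 differed from vehicle in SGK1 by 0.30 ± 0.09 (95% interval 0.09 to 0.51), which did not pass (limma adjusted p = 1.00). With RU-486 on top of progesterone, SGK1 stood 0.44 ± 0.09 above progesterone alone (0.23 to 0.65, limma adjusted p = 0.255). Progesterone alone differed from vehicle by -0.13 ± 0.09 (-0.34 to 0.08), with both its arrays below both vehicle arrays, and progesterone added to RU-486 by 0.01 ± 0.09 (-0.20 to 0.22). The SGK1 levels with both steroids and with RU-486 alone overlapped. The interaction, which asks whether the effects of the steroids add up, was 0.14 ± 0.13 (limma adjusted p = 0.833).

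TSC22D3, better known as GILZ, a mediator of glucocorticoid action that binds NF-kappaB and AP-1, followed SGK1 over the arrays (Pearson r = 0.94 over 8 arrays that share their groups, a description). Its levels were 7.62 and 7.66 with the combination, 7.57 and 7.77 with RU-486, 7.37 and 7.30 with progesterone, and 7.48 and 7.20 with vehicle (probe set 8174361). Both vehicle arrays and both progesterone arrays lay below all 4 with RU-486, with the vehicle arrays the farthest apart. The average effect of RU-486 was 0.32 ± 0.08, or 1.25-fold (limma adjusted p = 0.385), from 0.25 to 0.39 over the alternatives. RU-486 stood 0.33 ± 0.12 above vehicle (0.19 without vehicle replicate 2 and 0.47 without vehicle replicate 1) and the combination 0.31 ± 0.12 above progesterone, and the interaction was -0.02 ± 0.17 (95% interval -0.41 to 0.37). Progesterone alone differed from vehicle by -0.01 ± 0.12, with a 95% interval of -0.29 to 0.27.

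NFKBIA encodes IkappaB alpha, which holds NF-kappaB in the cytoplasm and whose induction is one of the ways glucocorticoids dampen inflammation. Its levels were 10.49 and 10.34 with the combination, 10.33 and 10.26 with RU-486, 10.21 and 10.09 with progesterone, and 10.19 and 10.08 with vehicle (probe set 7978644). Its lowest array with RU-486 and its highest without lay 0.05 apart. The average effect of RU-486 was 0.22 ± 0.07 (limma adjusted p = 0.423), with 0.27 ± 0.10 for the combination against progesterone and 0.16 ± 0.10 for RU-486 against vehicle. With the within-group direction as a covariate the average was 0.17.

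CEBPD, a transcription factor of the C/EBP family that glucocorticoids and inflammatory signals both raise, had levels of 10.04 and 9.90 with the combination, 9.86 and 9.90 with RU-486, 9.78 and 9.57 with progesterone, and 9.75 and 9.72 with vehicle (probe set 8150592). The arrays with and without RU-486 were 0.08 apart at their nearest, and the highest array was a combination one. Its average effect of RU-486 was 0.22 ± 0.07 (limma adjusted p = 0.424), and it stood at 0.29 ± 0.10 for the combination against progesterone and 0.14 ± 0.10 for RU-486 against vehicle. CEBPD and NFKBIA followed each other (r = 0.93) and ran opposite to NR3C1 (r = -0.84 and -0.92, over the same 8 arrays). Within every group, too, replicate 1 was the higher in NFKBIA and the lower in NR3C1. In CEBPD replicate 1 was the higher except with RU-486 alone. How far the correlations follow this difference between replicates was not tested. The combination arrays, lowest in NR3C1, held the highest level of either target.

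ERRFI1, also called MIG6, an inhibitor of the EGF receptor, was bright and differed least among the 5 (probe set 7912157). It had 11.48 and 11.64 with the combination, 11.56 and 11.66 with RU-486, 11.42 and 11.43 with progesterone, and 11.46 and 11.42 with vehicle. The 4 arrays without RU-486 spanned 0.04, and the gap to the lowest array with it was 0.02. The average effect was 0.15 ± 0.06 (limma adjusted p = 0.440), or 0.12 after quantile normalization.

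The other 4 targets overlapped between the arrays with and without RU-486. KLF9, a Krüppel-like factor induced by glucocorticoids and thyroid hormone, had 7.22 and 7.30 with the combination, 7.29 and 7.29 with RU-486, 7.43 and 7.27 with progesterone, and 7.24 and 7.43 with vehicle (probe set 8161648). Its highest arrays were 1 each of progesterone and vehicle. The average effect of RU-486 on KLF9 was -0.07 ± 0.07, and its 95% interval of -0.24 to 0.10 leaves out a difference as large as that of SGK1.

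ZBTB16, or PLZF, a zinc-finger repressor strongly induced by glucocorticoids in many cells, had 6.80 and 6.60 with the combination, 6.48 and 6.60 with RU-486, 6.80 and 6.43 with progesterone, and 6.47 and 6.42 with vehicle (probe set 7943984). A progesterone array matched the highest combination array, while the other progesterone array and both vehicle arrays lay lowest. Its average effect of RU-486 was 0.09 ± 0.10 (95% interval -0.14 to 0.32). Without progesterone replicate 1 the ZBTB16 average was 0.18, and its arrays with RU-486 all lay above those without, as they did for 13.5% of all genes in that setting. Without progesterone replicate 2 the average was -0.0046.

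DUSP1, a phosphatase that switches off MAP kinases, had 9.62 and 9.78 with the combination, 9.72 and 9.60 with RU-486, 9.73 and 9.44 with progesterone, and 9.73 and 9.53 with vehicle (probe set 8115831). The groups overlapped fully, and the average effect of RU-486 was 0.07 ± 0.09 (-0.14 to 0.29). GLUL, the glutamine synthetase named above, had 11.79 and 11.65 with the combination, 11.78 and 11.59 with RU-486, 11.59 and 11.73 with progesterone, and 11.72 and 11.68 with vehicle (probe set 8154951). Its average effect was 0.02 ± 0.07 (-0.15 to 0.19). A second GLUL probe set, 7922689, gave -0.01. GLUL has pseudogenes, and how far the probe sets share signal with them was not tested.

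**Figure D2:**
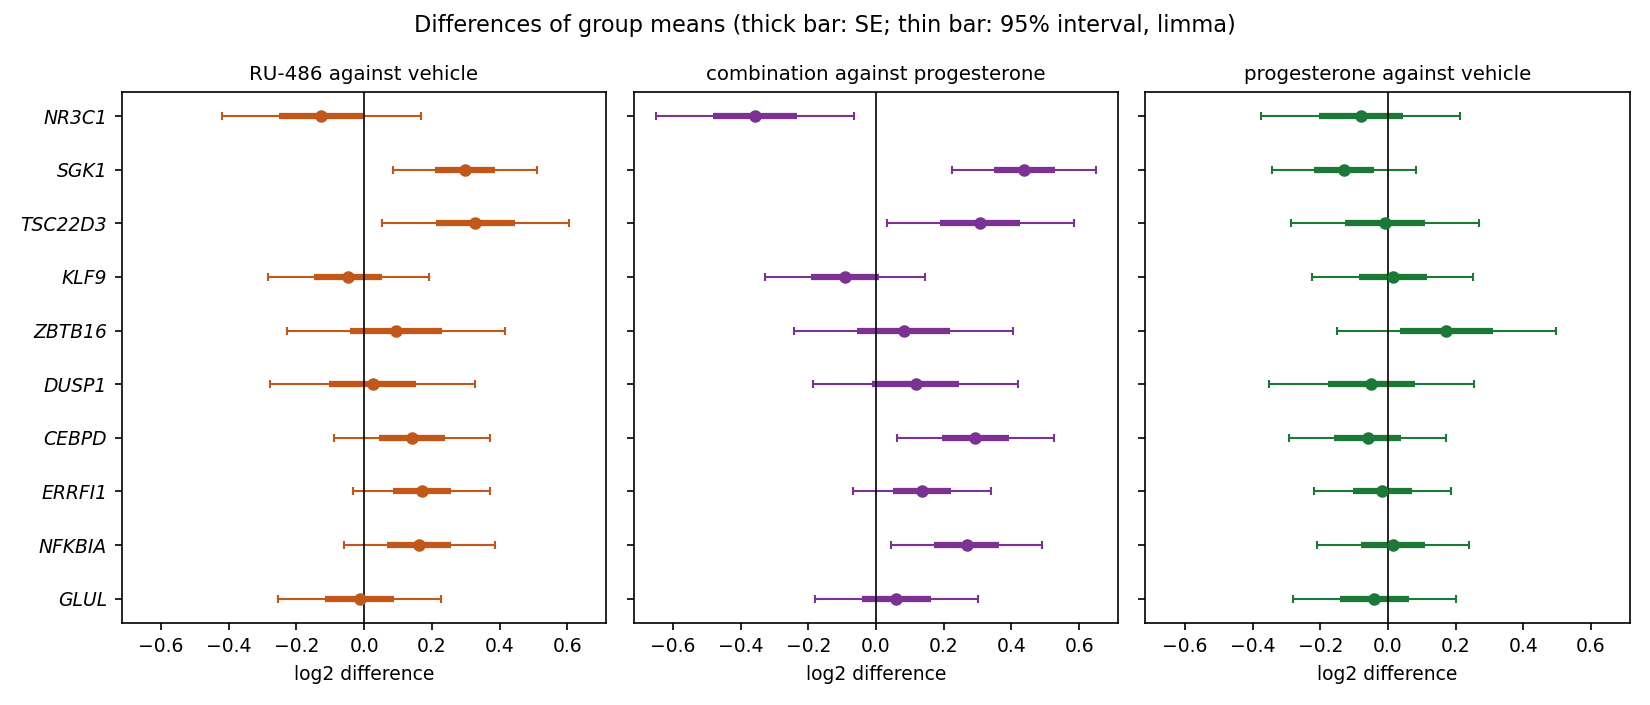
Log2 differences of NR3C1 and 9 targets (points) with their SE (thick bars) and 95% limma intervals (thin bars) for RU-486 against vehicle, the combination against progesterone and progesterone against vehicle, 2 arrays a group. SGK1 and TSC22D3 lie near 0.3 or above in the first 2 panels, whereas every interval in the progesterone panel crosses 0.

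RU-486 alone against vehicle gave a mean above 0 for 7 of the 9 targets (55.3% of all genes), with a median of 0.14 against 0.01 over all genes. Of these, 6 had both RU-486 arrays above both vehicle arrays (24% of all genes): the 5 named above and ZBTB16. For the 5 this follows from their being higher on every array with RU-486. Both RU-486 arrays of NR3C1, and of 0 targets, lay below both vehicle arrays (15.7%). By limma 0 of the 10 genes passed (0% of all genes), and 2 were higher at an unadjusted p under 0.05, SGK1 and TSC22D3 (2.15% of all genes), and 0 lower (0.95%). Fewer of the 10 and fewer of all genes had such a p without vehicle replicate 2 or without RU-486 replicate 2. With 1 array left out, SGK1 differed by 0.22 to 0.38 and TSC22D3 by 0.19 to 0.47. GLUL and KLF9 were the targets with means below 0, at -0.01 ± 0.10 and -0.05 ± 0.10.

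Adding RU-486 to progesterone gave a mean above 0 for 8 of the 9 targets (56.7% of all genes), with a median of 0.14 against 0.03. The 5 targets SGK1, TSC22D3, CEBPD, NFKBIA and ERRFI1 had both combination arrays above both progesterone arrays, as did 28.1% of genes, and NR3C1 had both below (12.6%). For these 5 targets that order follows from their being higher on every array with RU-486. By limma 0 of the 10 passed (0%), while 4 targets were higher at an unadjusted p under 0.05 (10.1%) and NR3C1 was lower (4.5%). Fewer of the 10 had such a p without progesterone replicate 2 or without either combination array. Over all genes, more had one in the first setting and fewer without a combination array. With 1 array left out, SGK1 differed by 0.40 to 0.47 and NR3C1 by -0.51 to -0.20. This comparison and the one above share no arrays. The 5 targets were named for their order over all 8 arrays, so a difference above 0 in both follows from it. SGK1 differed by 0.44 here and 0.30 there, TSC22D3 by 0.31 and 0.33, CEBPD by 0.29 and 0.14, NFKBIA by 0.27 and 0.16, and ERRFI1 by 0.14 and 0.17. The interaction, their difference, passed for 0 of the 10 (0% of genes), and at an unadjusted p under 0.05 0 were higher (3.68%) and 0 lower (1.6%). It lay above 0 for 5 of the 9 targets (52.4%), with a median of 0.07.

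Progesterone alone left targets on both sides of 0. Against vehicle 3 of the 9 targets had a mean above 0 (51.2% of all genes), with a median of -0.02 against 0.0038 over all genes. No target had both progesterone arrays above both vehicle arrays (16.3% of genes did), and 1, SGK1, had both below (15.8%). By limma 0 of 10 passed (0%), and at an unadjusted p under 0.05 0 were higher (3.68% of genes) and 0 lower (2.45%). Without progesterone replicate 2 the count at such a p rose, and so did that over all genes. Since 0 targets passed here, whether RU-486 blocks a response to progesterone could not be read from them. ZBTB16 had the largest mean difference of the 9, 0.17 ± 0.14, with 1 progesterone array at 6.80 and the other at 6.43. With 1 array left out, that difference ran from -0.01 to 0.36.

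Both steroids against vehicle gave a mean above 0 for 8 of the 9 targets, with a median of 0.23, and placed NR3C1 lower without overlap (18.8% of all genes). Here all genes lay higher too, with 67.5% above 0 and a median of 0.07, and 6 targets were higher without overlap (SGK1, TSC22D3, ZBTB16, CEBPD, NFKBIA and ERRFI1), where 42.7% of all genes were. For all of them but ZBTB16 this follows from their being higher on every array with RU-486. By limma 0 of the 10 passed (0%), with 4 targets higher (6.92% of genes) and NR3C1 lower (6.29%) at an unadjusted p under 0.05. Fewer of the 10 and fewer of all genes had such a p without any 1 of the vehicle, RU-486 or combination arrays. The drop was largest without vehicle replicate 2 or without combination replicate 1. More of both had one without either progesterone array. With the within-group direction as a covariate 2 of the 10 had such a p, as did 1854 of 18417 genes. The median of the 9 targets was then 0.13. Against RU-486 alone, the combination had 6 targets above 0 (61.1%), a median of 0.03 against 0.04 over all genes, and CEBPD and NFKBIA higher without overlap (33.3%). Again 0 of the 10 passed (0%), and at an unadjusted p under 0.05 0 were higher (3.18%) and NR3C1 alone was lower (1.56%).

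**Figure D3:**
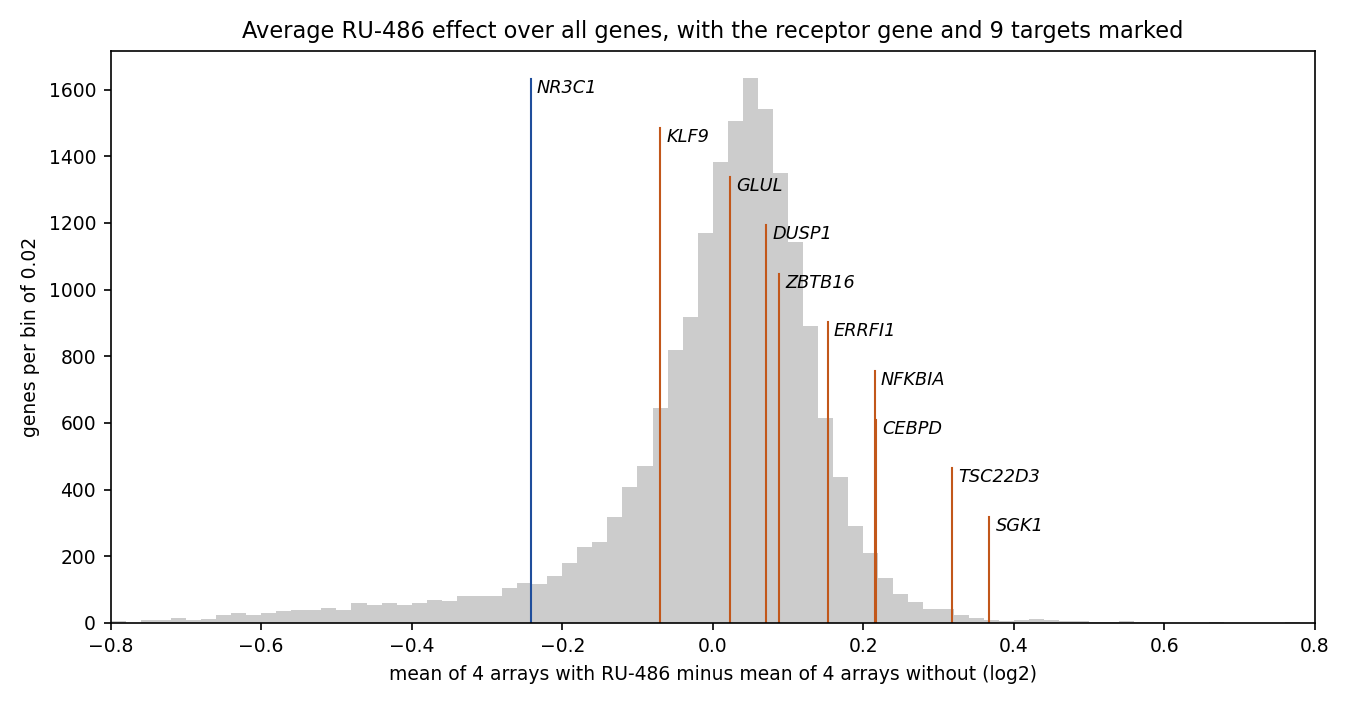
Histogram of the average RU-486 effect (mean of 4 arrays with minus mean of 4 without, log2) over 18417 genes in bins of 0.02, with vertical lines at NR3C1 (blue) and the 9 targets (orange), their heights set only to keep names apart. 21 genes beyond 0.8 on either side are not drawn; SGK1 and TSC22D3 lie in the upper tail, NR3C1 in the lower, and DUSP1, ZBTB16, GLUL and KLF9 in the bulk.

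A wider list of genes that glucocorticoids are known to induce lay close to the median of all genes, with a few members apart. Of 38 listed, 36 were measured, and 29 of these averaged above the olfactory 95th percentile. For the average effect of RU-486, 23 of the 36 lay above 0 (62.5% of all genes did), with a median of 0.05 against 0.03 over all genes. By limma 0 passed. At an unadjusted p under 0.05, 5 were higher (SERPINA3, DDIT4, PER1, ZFP36 and MT1X, the last named after its value was seen) and 1 lower, RHOB, also named after its value was seen, where 6.53% and 4.49% of all genes were. SERPINA3, an acute-phase protease inhibitor made by astrocytes, had 8.0 and 8.47 with the combination, 8.29 and 8.31 with RU-486, 7.66 and 7.93 with progesterone, and 7.92 and 7.74 with vehicle. Its 4 arrays with RU-486 were the highest, by 0.46 ± 0.12 on average (limma adjusted p = 0.384), more than SGK1 but with a wider spread.

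DDIT4, a stress-induced inhibitor of mTOR, also had every array with RU-486 above every array without, by 0.28 ± 0.06 (limma adjusted p = 0.331). Like SGK1 it was lowest with progesterone, at 8.83 and 8.77, against 9.04 and 8.95 with vehicle. PER1, a clock gene, differed by 0.21 ± 0.06 with overlap, and ZFP36, which destabilises inflammatory mRNAs, by 0.24 ± 0.08 without overlap. For ZFP36 the lowest array with RU-486 (8.561) and the highest without (8.552) nearly touched. Of the 36 genes, 4 were higher without overlap (4.51% of all genes) and 1 lower (1.09%). RHOB, a small GTPase, stood at -0.17 ± 0.06, with every array with RU-486 below every array without.

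**Figure D4:**
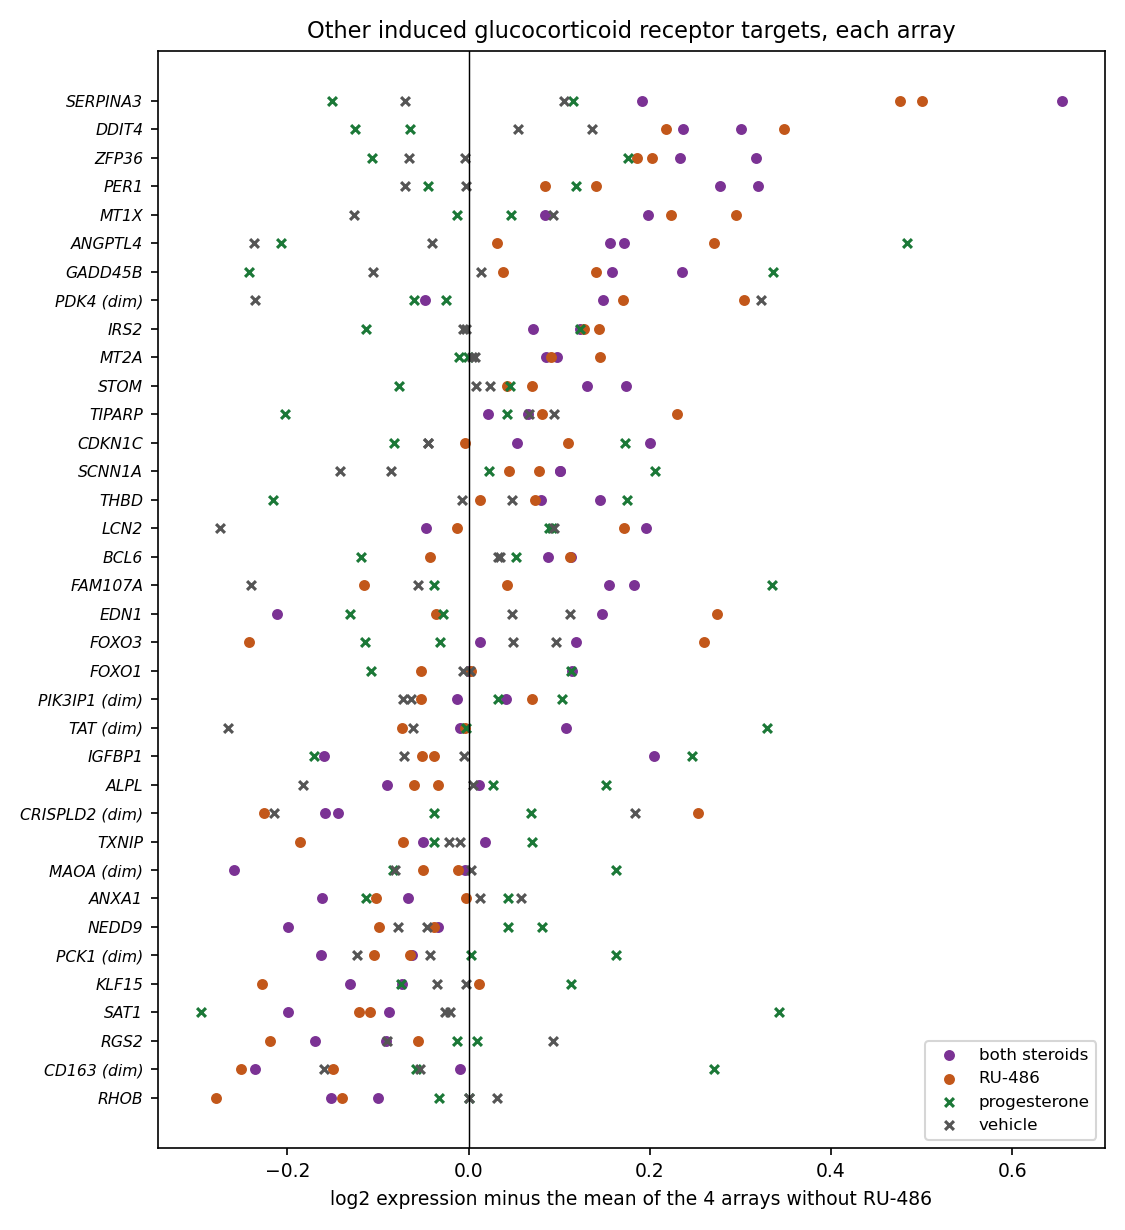
Log2 expression of 36 other genes known to be induced by glucocorticoids on each of the 8 arrays, relative to the mean of the 4 arrays without RU-486; circles are arrays with RU-486 (both steroids, RU-486 alone) and crosses arrays without (progesterone, vehicle), and "dim" marks a mean below the olfactory 95th percentile. SERPINA3 and DDIT4 at the top have all circles right of all crosses, RHOB at the bottom has them to the left, and most genes between overlap.

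Genes that the receptor is known to repress lay on both sides of 0. Of 15 listed, 14 were measured, 7 of them above the olfactory 95th percentile. For the average effect of RU-486, 6 of 14 lay above 0 (62.5% of all genes), with a median of -0.01. By limma 0 passed, with IL6 higher (6.53% of all genes) and 0 lower (4.49%) at an unadjusted p under 0.05. For RU-486 against vehicle 8 of 14 lay above 0 (55.3%) and 0 were higher at such a p (2.15%), but 2 were lower (0.95%): LIF at -0.39 ± 0.16 and MMP3, a matrix protease named after its value was seen, at -0.33 ± 0.12 (limma adjusted p = 1.00 for both). LIF averaged 6.15, below the olfactory 95th percentile. Without overlap between RU-486 and vehicle arrays 2 were higher (24%) and 4 lower (15.7%). Progesterone against vehicle also had 2 lower at such a p (2.45%), IL6 and MMP3, and 0 higher (3.68%). In the interaction 3 were higher (3.68%) and 0 lower (1.6%). IL6, an inflammatory cytokine that glucocorticoids are known to lower, had 7.26 and 7.60 with the combination, 7.17 and 7.28 with RU-486, 6.91 and 6.83 with progesterone, and 7.23 and 7.21 with vehicle. It was lowest on the progesterone arrays, and the RU-486 arrays overlapped the vehicle arrays. Its average effect was 0.28 ± 0.09 (unadjusted p = 0.0132, limma adjusted p = 0.421). CXCL8, a chemokine, stood at 0.24 ± 0.12, IL1B, an inflammatory cytokine near the floor, at 0.15 ± 0.09, and LIF, a cytokine of the IL6 family below that percentile, at -0.25 ± 0.11.

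The receptor's chaperones and cofactors divided. Of 17 listed, 14 were measured, and 5 of them lay above 0 for the average effect of RU-486 (62.5% of all genes), with a median of -0.02. By limma 0 passed, with FKBP4 higher (6.53% of all genes) and NCOA2 lower (4.49%) at an unadjusted p under 0.05. FKBP4, a co-chaperone that carries the receptor towards the nucleus, had 11.69 and 11.51 with the combination, 11.51 and 11.44 with RU-486, 11.33 and 11.27 with progesterone, and 11.37 and 11.36 with vehicle. All 4 of its arrays with RU-486 lay above the others, by 0.20 ± 0.06 (limma adjusted p = 0.423). NCOA2, a coactivator of the receptor, stood at -0.35 ± 0.13, PTGES3, the co-chaperone p23, at 0.15 ± 0.08, and MED1, a Mediator subunit, at -0.11 ± 0.06. Like NR3C1, NCOA2 and MED1 were lowest on the combination arrays, at 8.10 and 8.52 for NCOA2 and 11.37 and 11.51 for MED1. Of the 6 receptors measured, 4 lay above 0 for the average effect (62.5% of all genes), 0 passed (0.0326%) and at an unadjusted p under 0.05 0 were higher (6.53%) and 0 lower (4.49%), with ESR1 at 0.14 ± 0.07 the farthest from 0.

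The genes most like NR3C1 over the 8 arrays, among 13342 above the olfactory 95th percentile, were NAA25, CPSF2, YTHDF3, SKA3 and ATG4C, with Pearson r from 0.991 to 0.994. Those most like SGK1 were FYN, GARS1, TMEM208, PSAT1 and CREB3, with r from 0.982 to 0.987. None is among the 9 targets or in the lists above. The 8 arrays share 4 treatments, and the values are given as a description.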

How the data were processed

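Total RNA of each of the 4 treatments went onto 2 arrays (Affymetrix, Human Gene 1.0 ST). The authors deposited 1 log2 value per probe set and array, made with RMA, oligo and limma per the submitters' processing notes, which give no versions. RMA forces the probe intensities of the arrays to 1 distribution, which can hide a shift common to most genes. It also shrinks differences of dim genes. After summarizing per probe set the array medians still ran from 6.93 to 7.02. Precision is limited by how few arrays there are.

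Of 33297 probe sets, 19460 pair with 1 symbol, 1754 with several and 12083 with none in the platform annotation. The probe set with the highest mean was kept for each of 18417 genes, with no filter. All 8 arrays entered 1 fit of group means by limma 3.58.1 (R 4.3.3; lmFit, eBayes, 4 residual degrees of freedom) with 7 contrasts, the average effect of RU-486 being the 4 arrays with it minus the 4 without. P-values were Benjamini-Hochberg adjusted within each contrast over all genes, with a threshold of 0.05. The fit was run on simulated data with independent noise and changes larger than the average effects of the 10 genes. The direction shared within groups was not simulated, so that run checks the code only. Members and lists were chosen with earlier results of these data known, so lists are described by counts and medians beside all genes. Named are all 10 genes, the 4 genes of each list with the smallest p for the average effect of RU-486, all receptors, and the 5 genes most like NR3C1 and SGK1. Promoter sequences are from RefSeq. Listed genes without a probe set of their own symbol alone are not analysed here, and some are not reported here. Some source labels give RU-486 another number and shorten the cell line's name, and both are read here as the same. Alternatives are listed in the closing section.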

Additional observations from a re-analysis of the deposited data

Results flagged for a closer look

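Among the 20 sets of 4 arrays checked (10 genes, with and without RU-486), 3 held an array far from the other 3, by a gap to the nearest array that exceeded Dixon's 95% critical share of the set's range. Chance flags about 1 in 20 sets. ZBTB16 without RU-486 had progesterone replicate 1 at 6.80 and the next array at 6.47, a gap of 0.892 of the range. KLF9 with RU-486 had combination replicate 1 at 7.22 and the next at 7.29, a gap of 0.873. ERRFI1 without RU-486 had vehicle replicate 1 at 11.46 and the next at 11.43, a gap of 0.862. The KLF9 and ERRFI1 gaps were under 0.1 log2 units. Without progesterone replicate 1, the average effect of RU-486 on ZBTB16 was 0.18, and without progesterone replicate 2 it was -0.0046.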

How the results depend on the processing

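Over 18 alternatives, 1240 differences of the 10 genes were recomputed. Of these 75 changed sign, each with an unadjusted p of 0.246 or more and a size of 0.17 or less, and 2 passed the test, both without progesterone replicate 1: NR3C1 for the combination against progesterone (-0.51, limma adjusted p = 0.0477) and SGK1 for the average effect of RU-486 (0.37, limma adjusted p = 0.0408). In the other settings 0 of the 10 passed. SGK1, TSC22D3, CEBPD, NFKBIA and ERRFI1 kept their sign for RU-486 against vehicle, the combination against progesterone and the average effect in every alternative run, and so did NR3C1.

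Targets without overlap between arrays with and without RU-486 numbered 5 to 6 when 1 array was left out, and 3 after quantile normalization. Of all genes 5.09% to 13.5% were so ordered with 1 array left out, the most without progesterone replicate 1, where the count was 6, and 4.24% after quantile normalization. Leaving out an array can only keep or raise this count and share, so they could not have fallen there. The median of the 9 targets moved with single arrays: 0.10 to 0.16 for RU-486 against vehicle (0.091 with the within-group direction as a covariate), 0.16 to 0.27 for the combination against vehicle (0.13 with that covariate), 0.14 to 0.27 for the combination against progesterone, -0.057 to 0.045 for progesterone against vehicle, -0.026 to 0.073 for the combination against RU-486 and -0.034 to 0.15 for the interaction, which was 0.0024 with probe sets averaged per gene. For the average effect it ran from 0.13 to 0.18 with 1 array left out.

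Counts of all genes called were 0 to 998 for the average effect, 0 to 1090 for the combination against progesterone (both highest without progesterone replicate 1) and 0 to 1228 for progesterone against vehicle (highest without progesterone replicate 2). Members called in these 3 were 0 to 1, 0 to 1 and 0. For the average effect the count was 0 with all probe sets tested, 12 with dim genes left out, 43 with a trended, robust prior and 11 with the within-group direction. For the combination against progesterone it was 17 both with that prior and with that direction. Array weights gave 3 for RU-486 against vehicle and 7 for the combination against vehicle. Where 1 array was left out, the lone array of its group was assumed to vary like the others. A fit of only the groups compared was not possible for the average effect and the interaction, which use all arrays. The causes were not tested.

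The groups share replicate numbers, without a stated meaning. Deviations of replicate 1 from the group mean correlated at 0.20 to 0.51 across genes between every 2 groups. With the replicate block, 1 gene was called for the combination against vehicle, 0 of the 10 genes passed in any contrast, and SGK1 stood at 0.37 for the average effect (limma adjusted p = 0.0877). A block removes 1 degree of freedom from a small design.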
